A study of Mus musculus with 15 samples.

Results

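The cytochrome P450 genes of mouse lung are described here in animals that aspirated or inhaled carbon nanotubes of rod-like shape (rCNT). A gene was taken as a member if its symbol, found through the RefSeq accession of its array probe, was Cyp followed by a digit, with Cyp2f2 and Cyp51 left out. Of 96 such genes with a probe on the array, 51 were measured, meaning that 3 or more samples of some group had a probe well above local background. The brightest probe stood for a gene. All tests were fitted over the 25251 genes or unnamed transcripts measured the same way.

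Lung RNA came from female C57BL/6 mice aged 7 to 8 weeks, taken 24 h after the last exposure. The aspirated rCNT group (4 samples) received 10 µg of rCNT daily for 4 days, suspended in 50 µl of saline (phosphate-buffered, PBS), and the aspirated PBS group (4 samples) received 50 µl of PBS alone. The inhaled rCNT group (3 samples) breathed an aerosol of 6.2 to 8.2 mg/m3 for 4 h a day on 4 days, and the control for inhalation was 4 samples of untreated mice. Each sample was hybridised in 1 colour, Cy3 or Cy5, of a 2-colour Agilent array, and its level is a log2 intensity that cannot be compared between genes.

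The 8 aspiration samples lay on slide 1, and the inhaled and untreated samples were spread over slides 2 and 3. Route, slide and kind of control therefore cannot be told apart when the routes are compared. Slide 2 held inhaled rCNT replicate 1 and untreated replicates 1, 2 and 3. Slide 3 held inhaled rCNT replicates 2 and 3 and untreated replicate 4, with inhaled replicate 2 and untreated replicate 4 on the same array. Values within a slide are thus plain differences of means with a single sample on 1 side. They have no correction for dye and were not tested. The fit over all samples had no term for the shared array. The untreated samples stood apart on the first principal component (47.7 to 51.8, against -0.1 to 1.1 for PBS), so inhalation values against the PBS samples are also given where they change a result. For untreated replicate 1 the title speaks of aspirated PBS, against its other labels. Without it, 7 members were higher and 26 lower after inhalation. The arrays used for the inhalation samples have the word Pool in their names, which hints at pooled RNA there. The labels do not say how many mice went into any sample. The p-values therefore measure only how far these samples spread, and that spread may be technical.

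Cytochrome P450 enzymes carry haem and insert oxygen into their substrates, with electrons passed on by P450 reductase in the endoplasmic reticulum or by ferredoxin in mitochondria. Families CYP1 to CYP3 mainly oxidise foreign compounds, CYP2C and CYP2J turn arachidonic acid into epoxides, CYP4 enzymes hydroxylate fatty acids and leukotrienes, and the higher-numbered families act on sterols, steroid hormones, vitamin D and retinoic acid. In the lung many of them are found in club cells of the airway, alveolar type 2 cells and endothelium, where they can activate or clear inhaled chemicals.

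After aspiration of rCNT, 27 of 51 members fell and 5 rose at a limma adjusted p under 0.05, against 26.5% and 20.6% of all genes tested. Cyp2a4, Cyp26b1, Cyp4b1, Cyp2b10, Cyp4f15, Cyp1a1, Cyp2e1 and Cyp2b9 fell at least 2-fold, which 0.931% of all genes did, and Cyp7b1 and Cyp4f18 rose at least 2-fold, as 2.87% of all genes did. After inhalation 24 members fell and 8 rose, against 32.5% and 28.4% of all genes. Cyp26b1, Cyp2j9, Cyp1a1, Cyp2j6 and Cyp2j8 fell at least 2-fold (1.78% of all genes), and no member rose that much (4.16% of all genes). The median log2 change over the members was -0.23 after aspiration and -0.16 after inhalation, beside medians of -0.04 and -0.02 over all genes. In whole lung, fewer cells of a type and less RNA per cell cannot be told apart.

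Samples of the 2 groups did not overlap for 28 of 51 members after aspiration and for 29 after inhalation, as was so for 42.5% and 54.8% of all genes. By both routes 18 members fell, among them Cyp1a1, Cyp26b1, Cyp27a1, Cyp2e1, Cyp4b1 and the CYP2J genes Cyp2j6, Cyp2j8 and Cyp2j9. Cyp7b1 was the 1 member that rose by both routes. Cyp1b1, Cyp4f16 and Cyp4f18 rose after aspiration and fell after inhalation, and Cyp2s1 did the reverse. For 10 members, among them Cyp3a11, Cyp46a1 and Cyp2d26, neither change passed the test. The shares of all genes that passed by both routes or by neither were not counted. These counts over both routes therefore describe the members and do not set them apart from other genes.

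**Figure D1:**
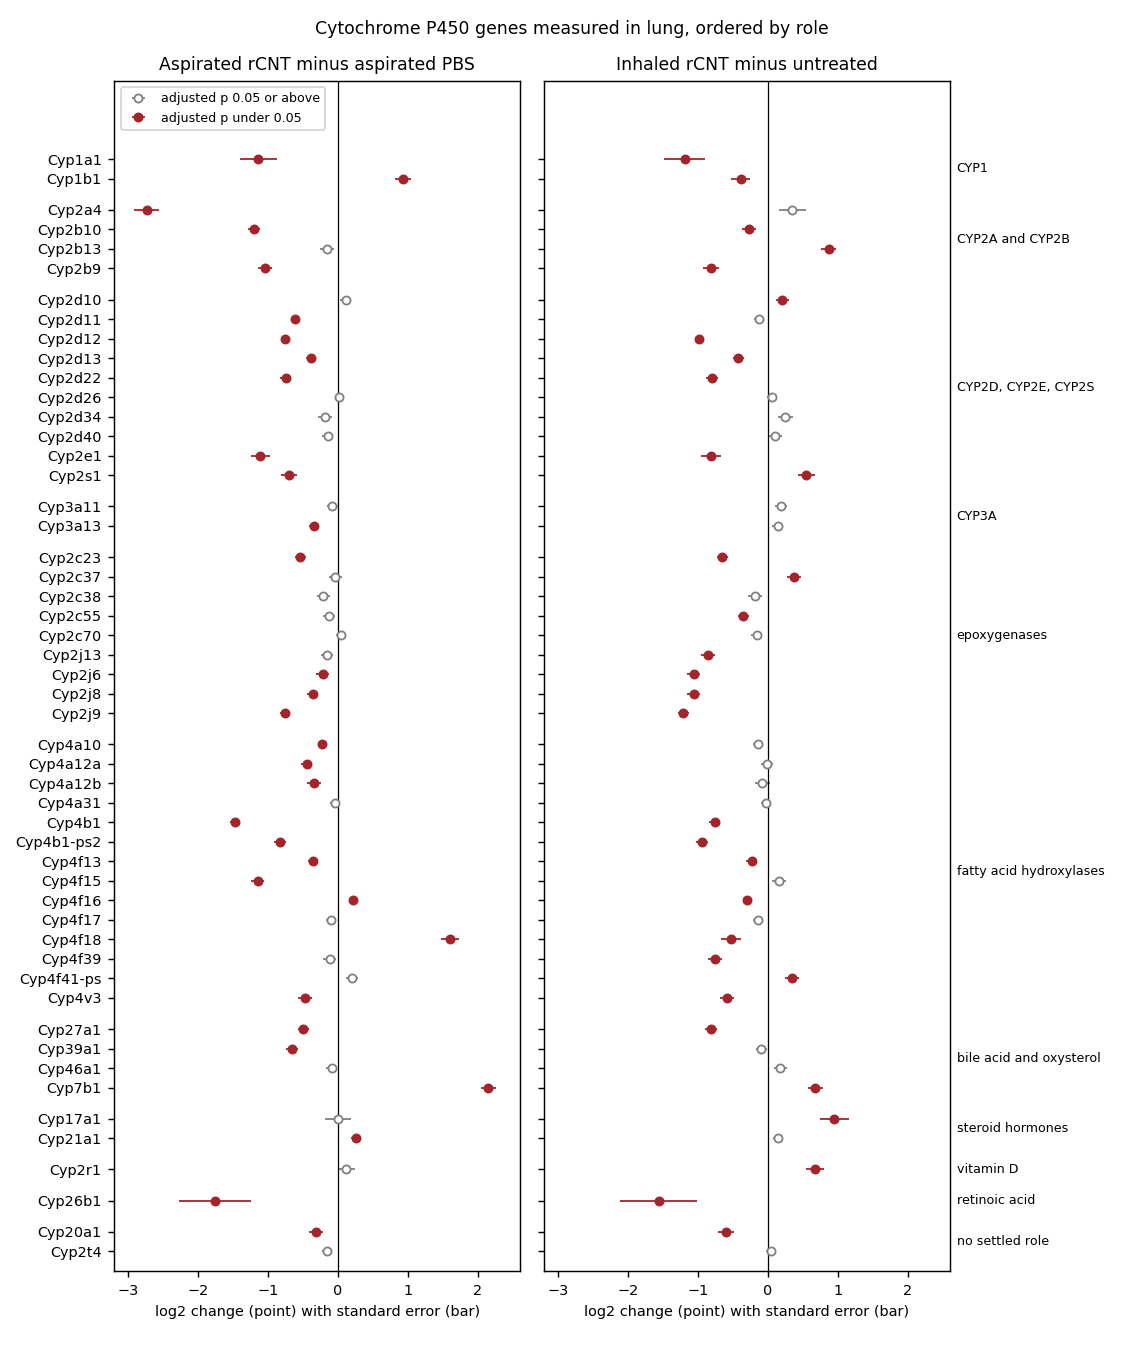
Log2 change of each of the 51 measured P450 genes (vertical axis, ordered by role) after aspiration (left) and inhalation (right), with points for the change, bars for its standard error and filled points for a limma adjusted p under 0.05. Most filled points lie left of 0, with 27 lower and 5 higher on the left and 24 lower and 8 higher on the right.

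Of the CYP1 enzymes, which oxidise polycyclic aromatic hydrocarbons and are induced through the aryl hydrocarbon receptor, Cyp1a1 fell by both routes while Cyp1b1 went in opposite directions. The log2 intensity of Cyp1a1 was 9.03, 8.44, 8.85 and 9.41 in the PBS samples and 7.93, 7.95, 7.50 and 7.80 after aspirated rCNT. Every rCNT sample lay below every PBS sample, and the change was -1.14 ± 0.27 (SE, n = 4 and 4; limma adjusted p = 0.00233), a 2.2-fold fall. The untreated samples had 10.96, 10.99, 11.17 and 10.65 and the inhaled rCNT samples 8.74, 10.56 and 9.82. These groups did not overlap either, and the change was -1.19 ± 0.29 (SE, n = 3 and 4; limma adjusted p = 0.00213). It was -2.29 within slide 2 and -0.46 within slide 3, and without inhaled rCNT replicate 1 it was -0.75. The untreated mean of 10.94 ± 0.21 (SD, n = 4) stood above the PBS mean of 8.93 ± 0.40 (SD, n = 4), and against the PBS samples inhaled rCNT was higher by 0.81 (limma adjusted p = 0.0262), so the direction after inhalation turns with the control.

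Cyp1b1, the extrahepatic CYP1 enzyme, had 8.07, 8.38, 8.15 and 8.23 in the PBS samples and 9.01, 8.89, 9.30 and 9.35 after aspirated rCNT. The groups did not overlap and the rise was 0.93 ± 0.12 (SE, n = 4 and 4; limma adjusted p = 1.18e-05), or 1.91-fold. After inhalation the samples had 7.94, 7.82 and 8.40 against 8.39, 8.50, 8.44 and 8.45 in untreated lungs. The highest inhaled sample lay within the untreated range, and the change of -0.39 ± 0.13 (SE, n = 3 and 4; limma adjusted p = 0.0177) was -0.51 within slide 2 and -0.34 within slide 3. It no longer passed the test against the PBS samples (-0.15, limma adjusted p = 0.347), without inhaled rCNT replicate 2 (-0.23, limma adjusted p = 0.175) or without replicate 1 (-0.34, limma adjusted p = 0.0718).

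The promoters of both CYP1 genes are shown because their regulator, the aryl hydrocarbon receptor, binds a short core that both windows hold. They run from 250 bases before to 50 bases after the transcription start (RefSeq, GRCm38.p6), Cyp1a1 at chr9:57697363-57697662 on the plus strand and Cyp1b1 at chr17:79715012-79715311 on the minus strand. Capitals mark the core GCGTG on either strand, 54 bases before the start of Cyp1a1 and, as its complement, 76 bases before that of Cyp1b1, and in Cyp1a1 also the letters TATAAA 30 bases before the start.
Cyp1a1: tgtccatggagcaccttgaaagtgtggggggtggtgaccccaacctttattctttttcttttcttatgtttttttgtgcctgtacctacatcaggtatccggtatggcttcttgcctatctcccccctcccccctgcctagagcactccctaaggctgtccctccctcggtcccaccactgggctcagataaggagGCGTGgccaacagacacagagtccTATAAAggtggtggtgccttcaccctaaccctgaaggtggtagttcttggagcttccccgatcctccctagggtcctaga
Cyp1b1: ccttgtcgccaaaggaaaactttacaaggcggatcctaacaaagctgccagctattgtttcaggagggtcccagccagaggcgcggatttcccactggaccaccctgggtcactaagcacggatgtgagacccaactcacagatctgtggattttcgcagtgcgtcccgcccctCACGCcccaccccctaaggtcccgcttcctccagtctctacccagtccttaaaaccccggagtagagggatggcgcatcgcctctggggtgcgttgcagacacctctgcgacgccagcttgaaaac
The core GCGTG, searched on both strands, was in 12 of the 36 promoters listed for 35 members (33.3%) and in 32.4% of all 32851 promoters. The letters TATAAA were in 33.3% of the members' promoters and 13.6% of all, TGACNNNGC (the core of the antioxidant response element) in 8.33% and 12.4%, and the nuclear receptor half-site AGGTCA in 19.4% and 16.3%. These matches describe the letters in the window and are not binding sites shown by these data.

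Ahr, which encodes the receptor itself, fell by 0.32 after aspiration (limma adjusted p = 0.0344) and by 1.02 after inhalation (limma adjusted p = 5.19e-06). Tiparp, another target of the receptor, had changes of -0.15 (limma adjusted p = 0.109) and 0.25 (limma adjusted p = 0.0166), Nqo1 had -0.13 (limma adjusted p = 0.234) and -0.52 (limma adjusted p = 0.000156), and Ahrr was not measured.

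Among the CYP2A and CYP2B genes, whose enzymes oxidise nicotine, coumarin, steroids and phenobarbital-like drugs, 3 of 4 measured members fell after aspiration and none rose. Of all genes 26.5% fell and 20.6% rose. Cyp2a4, a steroid hydroxylase, had 12.08, 12.08, 12.80 and 11.46 in the PBS samples and 9.17, 9.55, 9.33 and 9.41 after aspirated rCNT. No samples overlapped, and the change of -2.74 ± 0.18 (SE, n = 4 and 4; limma adjusted p = 5.04e-09), a 6.68-fold fall, was the largest of any member. Inhaled rCNT gave 11.18, 10.72 and 11.50 against 10.86, 10.91, 10.18 and 10.88 in untreated lungs, which overlapped, and the change of 0.35 ± 0.19 (SE, n = 3 and 4) did not pass the test (limma adjusted p = 0.127). It was 0.53 within slide 2 and 0.23 within slide 3, passed without untreated replicate 2 (0.49, limma adjusted p = 0.0303) and was -1.05 against the PBS samples (limma adjusted p = 0.0003). Another probe of Cyp2a4 gave -2.25 and 0.10. Cyp2a4 is nearly identical to Cyp2a5, for which no probe was found by accession, and a signal from Cyp2a5 in these probes was not tested.

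Cyp2b10, the CYP2B enzyme induced through the constitutive androstane receptor, had 15.65, 15.18, 15.73 and 15.29 with PBS and 14.33, 14.39, 14.08 and 14.25 with aspirated rCNT. These samples did not overlap and differed by -1.20 ± 0.09 (SE, n = 4 and 4; limma adjusted p = 2.91e-08), a 2.3-fold fall. Inhaled rCNT gave 15.54, 15.16 and 15.23 against 15.60, 15.53, 15.48 and 15.54, which overlapped. That change was -0.27 ± 0.10 (SE, n = 3 and 4; limma adjusted p = 0.0285), with 0.00 within slide 2 and -0.35 within slide 3, and it did not pass with slide as a block (-0.19, limma adjusted p = 0.111), with loess within arrays (-0.16, limma adjusted p = 0.152), without the dye term (-0.23, limma adjusted p = 0.123) or against the PBS samples (-0.19, limma adjusted p = 0.108). It also lost the call without inhaled rCNT replicate 2 (-0.26, limma adjusted p = 0.0733) or 3 (-0.19, limma adjusted p = 0.146), and without untreated replicate 2 (-0.23, limma adjusted p = 0.0693) or 3 (-0.25, limma adjusted p = 0.0565). With channels brought only to a common median it was -0.77 (limma adjusted p = 8.97e-06).

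Cyp2b9 and Cyp2b13, neighbouring CYP2B genes whose enzymes hydroxylate steroids, parted after inhalation. Cyp2b9 had 10.09, 10.32, 10.14 and 10.15 in untreated lungs and 9.64, 9.27 and 9.21 after inhalation, with no overlap and a change of -0.81 ± 0.11 (SE, n = 3 and 4; limma adjusted p = 1.34e-05). Within slides 2 and 3 it was -0.54 and -0.92, and -0.40 with PBS samples as controls (limma adjusted p = 0.00677). Cyp2b13 had 6.92, 6.86, 6.87 and 6.90 in untreated lungs and 7.61, 8.02 and 7.66 after inhalation. All inhaled samples lay above all untreated ones, and the rise was 0.87 ± 0.11 (SE, n = 3 and 4; limma adjusted p = 7.08e-06), or 0.73 and 0.94 within slides 2 and 3, and 0.58 with PBS samples as controls (limma adjusted p = 0.000466). After aspiration Cyp2b9 went from 9.71, 9.54, 9.85 and 9.95 to 8.73, 8.84, 8.57 and 8.74, which did not overlap, a change of -1.04 ± 0.10 (SE, n = 4 and 4; limma adjusted p = 6.15e-07). Cyp2b13 went from 7.33, 7.06, 7.21 and 7.13 to 6.83, 6.84, 7.18 and 7.22, which overlapped, a change of -0.16 ± 0.10 (SE, n = 4 and 4; limma adjusted p = 0.213).

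The promoters of this pair are printed because they are almost the same sequence although the transcripts moved in opposite directions after inhalation. Both are on the plus strand (RefSeq, GRCm38.p6), Cyp2b9 at chr7:26173159-26173458 and Cyp2b13 at chr7:26061245-26061544, and capitals mark the half-site AGGTCA, 138 bases before the start in each.
Cyp2b9: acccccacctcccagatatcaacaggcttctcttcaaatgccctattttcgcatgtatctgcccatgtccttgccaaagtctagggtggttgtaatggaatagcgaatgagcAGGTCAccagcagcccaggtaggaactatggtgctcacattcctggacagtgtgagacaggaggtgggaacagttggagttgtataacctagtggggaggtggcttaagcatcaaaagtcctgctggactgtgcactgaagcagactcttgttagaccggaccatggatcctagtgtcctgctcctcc
Cyp2b13: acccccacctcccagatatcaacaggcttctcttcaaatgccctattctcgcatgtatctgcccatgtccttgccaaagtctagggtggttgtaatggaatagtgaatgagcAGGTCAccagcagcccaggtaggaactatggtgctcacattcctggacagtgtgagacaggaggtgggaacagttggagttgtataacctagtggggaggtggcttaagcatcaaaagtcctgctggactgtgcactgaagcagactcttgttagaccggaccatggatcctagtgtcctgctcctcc
Of the 300 bases 298 were identical, and the differences, counted from 1 at the 5′ end with the base of Cyp2b9 first, were T48C and C104T. Set against the window of Cyp2b10 base by base, 77 of 300 positions matched in Cyp2b9. The windows were not aligned for this count, so it does not show how alike the 2 sequences are. Whether the 2 array probes read only their own transcript was not tested.

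The remaining enzymes for foreign compounds fell more often than they rose after aspiration, with 6 of 10 measured CYP2D, CYP2E and CYP2S members lower and none higher. The shares of all genes were 26.5% lower and 20.6% higher. Cyp2e1, which oxidises ethanol and small solvents, had 9.96, 10.13, 10.21 and 9.59 with PBS and 8.68, 8.97, 8.94 and 8.84 with aspirated rCNT. The groups did not overlap and the change was -1.11 ± 0.13 (SE, n = 4 and 4; limma adjusted p = 4.69e-06). After inhalation it had 9.11, 8.57 and 8.88 against 9.36, 9.74, 9.56 and 9.90 in untreated lungs, again without overlap, a change of -0.81 ± 0.14 (SE, n = 3 and 4; limma adjusted p = 0.000157). That change was -0.45 within slide 2 and -1.17 within slide 3, and a further probe of Cyp2e1 gave -0.89 after aspiration and -0.94 after inhalation.

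Cyp2s1, an enzyme of airway epithelium that acts on retinoids and lipid mediators, moved in opposite directions. Its samples had 14.04, 14.13, 14.32 and 13.98 with PBS and 13.38, 13.54, 13.35 and 13.37 with aspirated rCNT, with no overlap and a change of -0.70 ± 0.11 (SE, n = 4 and 4; limma adjusted p = 8.07e-05). With inhaled rCNT it had 14.92, 14.10 and 14.61 against 14.15, 13.86, 13.94 and 13.88. The lowest inhaled sample lay within the untreated range, and the rise was 0.55 ± 0.12 (SE, n = 3 and 4; limma adjusted p = 0.00102), with 0.93 within slide 2 and 0.47 within slide 3. With channels brought only to a common median the inhalation change was 0.05 (limma adjusted p = 0.781).

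In the CYP2D cluster, relatives of the human drug enzyme CYP2D6, 4 of 8 measured members fell after aspiration and none rose, against 26.5% and 20.6% of all genes. After inhalation 3 fell, near the share of all genes (32.5%), and 1 rose, against 28.4% of all genes. The 1 that rose was Cyp2d10 (0.21, limma adjusted p = 0.0471), with overlapping samples. It was well above background in all 3 inhaled and all 4 aspirated rCNT samples, but in 2 untreated and 1 PBS sample. It was thus kept through the rCNT groups alone, a filter that favours rises, and its rise does not stand apart from that choice. Cyp2d12 went from 8.12 ± 0.06 (SD, n = 4) with PBS to 7.36 ± 0.05 (SD, n = 4) and from 8.21 ± 0.04 (SD, n = 4) in untreated lungs to 7.23 ± 0.08 (SD, n = 3). Neither pair of groups overlapped, and the changes were -0.76 (limma adjusted p = 2.28e-08) and -0.98 (limma adjusted p = 2.84e-09), the latter -1.06 within slide 2 and -0.95 within slide 3. Cyp2d22 had changes of -0.75 (limma adjusted p = 1.98e-06) and -0.80 (limma adjusted p = 1.44e-06, with -0.93 and -0.73 within slides 2 and 3), also without overlap. Members of this cluster are close in sequence, so the split of signal between them is uncertain. Of these Cyp2d10, Cyp2d26, Cyp2d34 and Cyp2d40, were not well above background in every sample.

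Cyp3a13, a CYP3A enzyme of drug and steroid oxidation, went from 7.94 ± 0.04 (SD, n = 4) with PBS to 7.60 ± 0.04 (SD, n = 4) with aspirated rCNT, without overlap, a fall of 1.27-fold (log2 change -0.35, limma adjusted p = 0.000749). Its inhalation change of 0.14 (limma adjusted p = 0.137) was 0.22 within slide 2 and -0.04 within slide 3, and it passed the test against the PBS samples (0.24, limma adjusted p = 0.0154) and without untreated replicate 4 (0.19, limma adjusted p = 0.0351). A dimmer probe of Cyp3a13 gave -0.70 (limma adjusted p = 5.5e-05) and -0.54 (limma adjusted p = 0.000823), so the probes disagree for inhalation. Cyp3a11, the other CYP3A gene measured, had changes of -0.08 and 0.19, and neither passed the test.

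**Figure D2:**
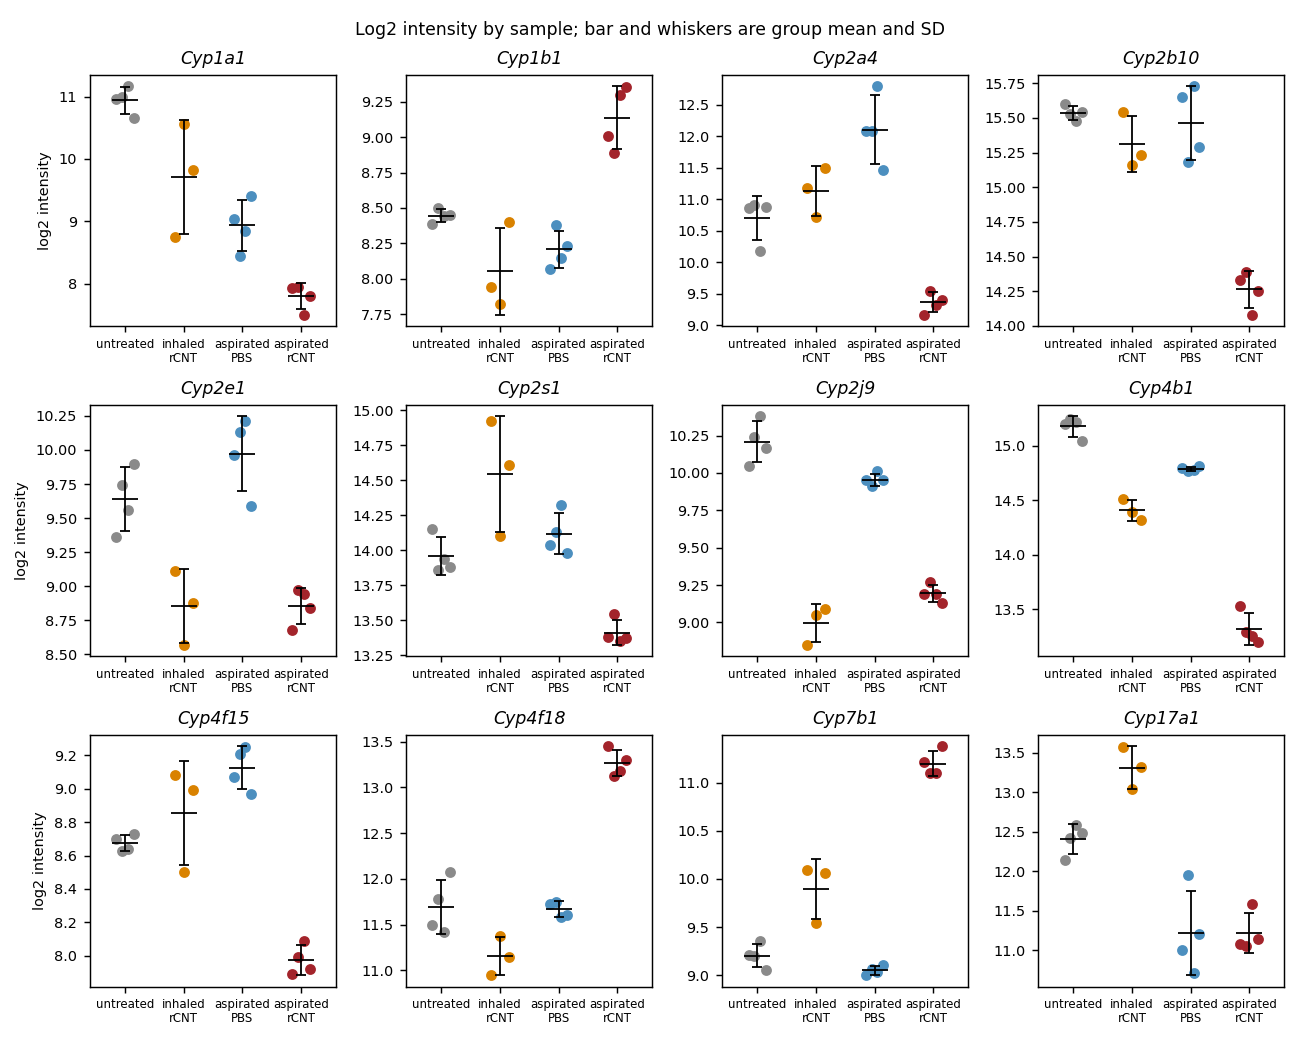
Log2 intensity (vertical axis) of 12 P450 genes in every sample, by group (horizontal axis), with a point per sample and a bar and whiskers for the group mean and SD. The aspirated rCNT samples of Cyp2a4 lie between 9.17 and 9.55, below all PBS samples, and those of Cyp7b1 between 11.10 and 11.38, above all others.

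The CYP2C and CYP2J genes, whose enzymes epoxidise arachidonic acid, included the CYP2J cluster, where all 4 measured members fell after inhalation with a median log2 change of -1.06 and 3 fell after aspiration with a median of -0.29. Of all genes 32.5% fell after inhalation and 26.5% after aspiration. Cyp2j9 had 10.05, 10.24, 10.38 and 10.17 in untreated lungs and 8.85, 9.05 and 9.09 after inhalation. The groups did not overlap and the change was -1.21 ± 0.08 (SE, n = 3 and 4; limma adjusted p = 3.96e-09), a 2.31-fold fall that was -1.37 within slide 2 and -1.10 within slide 3. With PBS it had 9.95, 9.91, 10.01 and 9.95 and with aspirated rCNT 9.19, 9.27, 9.19 and 9.13, again apart, with a change of -0.76 ± 0.07 (SE, n = 4 and 4; limma adjusted p = 3.35e-07).

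Cyp2j6 went from 8.40, 8.46, 8.54 and 8.47 in untreated lungs to 7.33, 7.61 and 7.30 after inhalation, without overlap, and Cyp2j8 from 9.0, 9.02, 8.98 and 8.91 to 7.86, 7.95 and 8.01, likewise apart. Both changes were -1.06 ± 0.09 (SE, n = 3 and 4; limma adjusted p = 1.32e-07 and 5.19e-08), within slide 2 both -1.14 and within slide 3 -1.02 and -0.94. After aspiration Cyp2j8 fell by 0.36 (limma adjusted p = 0.00151). The aspiration change of Cyp2j6 was -0.22 (limma adjusted p = 0.0445) with overlapping samples, and lost the call when any of aspirated rCNT replicates 2 (-0.22) or 3 (-0.15), PBS replicates 1 (-0.23), 3 (-0.17) or 4 (-0.22), or untreated replicate 2 (-0.22) was left out (limma adjusted p from 0.0526 to 0.172). It also lost the call with channels brought only to a common median (-0.24, limma adjusted p = 0.0819), with loess within arrays (-0.19, limma adjusted p = 0.0969), with no filter on dim probes (-0.22, limma adjusted p = 0.0595) and with the replicate block (-0.22, limma adjusted p = 0.0733). Another probe of Cyp2j6 gave -0.26 and -0.58.

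Cyp2j13 fell by 0.85 after inhalation (limma adjusted p = 2.93e-06), from 7.62 ± 0.12 (SD, n = 4) to 6.78 ± 0.04 (SD, n = 3) without overlap, with -0.82 and -0.86 within slides 2 and 3. With PBS samples as controls it was -0.34 (limma adjusted p = 0.00914), and another probe of the gene gave 0.06 (limma adjusted p = 0.497), so the probes disagree. Its aspiration change of -0.16 did not pass (limma adjusted p = 0.168), though it passed without aspirated rCNT replicate 1 (-0.25, limma adjusted p = 0.0339). Against the PBS samples the inhalation changes of the other CYP2J genes stayed below 0, at -0.95 for Cyp2j9 (limma adjusted p = 1.3e-07), -0.73 for Cyp2j8 (limma adjusted p = 5.02e-06) and -0.70 for Cyp2j6 (limma adjusted p = 1.59e-05). Of the CYP2C genes, Cyp2c23 fell by both routes (-0.54 and -0.65). It was well above background in only 2 of 4 aspirated and 1 of 3 inhaled rCNT samples, against all 8 controls. It was thus kept through the control groups alone, a filter that favours falls. Its falls do not stand apart from that choice, and their sizes are uncertain. Cyp2c55 fell after inhalation (-0.35) and Cyp2c37 rose after it (0.38).

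Among the CYP4 genes, whose enzymes hydroxylate fatty acids, 8 of 14 measured members fell and 2 rose after aspiration, and 7 fell and 1 rose after inhalation, against 26.5% and 20.6% of all genes by aspiration and 32.5% and 28.4% by inhalation. Cyp4b1, a lung enzyme that activates furans and aromatic amines, had 14.80, 14.77, 14.78 and 14.81 with PBS and 13.53, 13.29, 13.25 and 13.20 with aspirated rCNT. The groups stood far apart relative to their spread, and the change was -1.47 ± 0.07 (SE, n = 4 and 4; limma adjusted p = 2.11e-10), a 2.77-fold fall. With inhaled rCNT it had 14.51, 14.39 and 14.32 against 15.20, 15.25, 15.22 and 15.04 in untreated lungs, also without overlap, a change of -0.76 ± 0.08 (SE, n = 3 and 4; limma adjusted p = 6.38e-07) that was -0.71 within slide 2 and -0.69 within slide 3. It was -0.37 against the PBS samples (limma adjusted p = 0.00084) and -1.29 with channels brought only to a common median (limma adjusted p = 2.44e-08). The pseudogene Cyp4b1-ps2 near it changed by -0.83 (limma adjusted p = 4.65e-07) and -0.94 (limma adjusted p = 2.02e-07, with -0.79 and -1.10 within slides 2 and 3), but its inhalation change against the PBS samples was 0.03 (limma adjusted p = 0.76). How far its probe reads Cyp4b1 was not tested.

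The CYP4F genes Cyp4f15 and Cyp4f18, whose enzymes inactivate leukotrienes and other fatty acids, moved in opposite directions after aspiration. Cyp4f18, known from neutrophils, had 11.73, 11.75, 11.58 and 11.60 with PBS and 13.45, 13.13, 13.18 and 13.30 with aspirated rCNT. The samples did not overlap and the rise was 1.60 ± 0.13 (SE, n = 4 and 4; limma adjusted p = 5.07e-08), or 3.03-fold. After inhalation it had 10.95, 11.37 and 11.15 against 11.49, 11.78, 11.42 and 12.07 in untreated lungs, below all of them, a change of -0.53 ± 0.14 (SE, n = 3 and 4; limma adjusted p = 0.00345) with -0.62 within slide 2 and -0.81 within slide 3. It was -0.90 with channels brought only to a common median (limma adjusted p = 2.26e-05).

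Beside Cyp4f18, 3 of 7 measured neutrophil markers rose and 1 fell after aspiration, and 1 rose and 3 fell after inhalation. The calprotectin genes S100a8 and S100a9 changed by -2.63 and -2.64 after inhalation. After aspiration they changed by 0.51 (limma adjusted p = 0.115) and 0.24 (limma adjusted p = 0.481), which did not pass. Csf3r was the marker that fell after aspiration (-0.39) and the 1 that rose after inhalation (0.53). Of all genes 20.6% rose and 26.5% fell after aspiration, and 28.4% rose and 32.5% fell after inhalation. The mean log2 level over the neutrophil list ran from 10.88 to 11.27 with PBS, 11.48 to 11.90 with aspirated rCNT, 10.99 to 11.49 in untreated lungs and 10.25 to 10.58 with inhaled rCNT. The part of neutrophils in the values of Cyp4f18 was not tested.

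Cyp4f15 had 9.07, 9.21, 9.25 and 8.97 with PBS and 7.89, 7.99, 8.09 and 7.92 with aspirated rCNT, with no overlap and a change of -1.15 ± 0.09 (SE, n = 4 and 4; limma adjusted p = 7.34e-08). Inhaled samples of 9.08, 8.50 and 8.99 overlapped the untreated 8.70, 8.63, 8.64 and 8.73, and the change of 0.16 (limma adjusted p = 0.188) was 0.43 within slide 2 and 0.02 within slide 3. It passed without inhaled rCNT replicate 2 (0.34, limma adjusted p = 0.00461) and was -0.29 against the PBS samples (limma adjusted p = 0.0257). Cyp4f16 rose by 0.21 after aspiration and fell by 0.30 after inhalation. The CYP4A genes Cyp4a10, Cyp4a12a and Cyp4a12b fell after aspiration, by 0.23, 0.45 and 0.34, and did not pass after inhalation. Another probe of Cyp4a10 did not pass after aspiration (-0.17, limma adjusted p = 0.0826). Cyp4a12a was kept through the PBS group alone, where all 4 samples were well above background, against 1 of 4 aspirated rCNT samples. That filter favours a fall against PBS. The fall of Cyp4a12a, though counted among the members lower, therefore does not stand apart from the choice of genes, and its size is uncertain. Cyp4a12b was kept through the control groups alone, where 3 of 4 untreated and all 4 PBS samples were well above background. Of the rCNT samples, 2 of 3 inhaled and 2 of 4 aspirated were. Its fall therefore does not stand apart from the choice of genes either, and its size is uncertain too. Cyp4a12a and Cyp4a12b are near-identical copies, so the split of signal between them is uncertain. The pseudogene Cyp4f41-ps, counted among the members higher after inhalation, was well above background in no untreated sample and in 1 of 3 inhaled samples, and the lowest inhaled sample (6.26) lay below the highest untreated one (6.29), so no fold is given.

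The bile acid and oxysterol genes held the largest rise of any member. Cyp7b1, an oxysterol hydroxylase that also makes ligands guiding lymphocytes, had 9.0, 9.06, 9.03 and 9.11 with PBS and 11.22, 11.10, 11.10 and 11.38 with aspirated rCNT. The groups lay far apart, and the rise was 2.15 ± 0.11 (SE, n = 4 and 4; limma adjusted p = 2.22e-10), or 4.44-fold. Inhaled rCNT gave 10.09, 9.54 and 10.06 against 9.21, 9.20, 9.35 and 9.05, also without overlap, a rise of 0.68 ± 0.11 (SE, n = 3 and 4; limma adjusted p = 9.07e-05). That rise was 0.83 and 0.76 within slides 2 and 3, 0.84 with PBS samples as controls (limma adjusted p = 2.04e-05) and 0.44 with channels brought only to a common median (limma adjusted p = 0.00633).

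Beside Cyp7b1, 6 of 9 measured macrophage markers rose and 3 fell after aspiration, and after inhalation 3 rose and 3 fell. After aspiration C1qb rose by 2.20 and C1qa by 2.11, while the 3 that fell were Marco (-0.73), Mertk (-0.58) and Lyz2 (-0.58). The shares of all genes were 20.6% higher and 26.5% lower after aspiration, and 28.4% and 32.5% after inhalation. The mean log2 level over the macrophage list ran from 11.09 to 11.28 with PBS, 11.66 to 11.92 with aspirated rCNT, 10.91 to 11.03 in untreated lungs and 10.88 to 11.09 with inhaled rCNT. Their part in the rise of Cyp7b1 was not tested.

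Cyp27a1, the mitochondrial sterol hydroxylase of bile acid synthesis, went from 7.94, 7.68, 7.99 and 8.01 with PBS to 7.37, 7.57, 7.27 and 7.39, and from 7.75, 7.62, 7.76 and 7.59 in untreated lungs to 6.86, 6.94 and 6.84 after inhalation. Neither pair of groups overlapped, and the changes were -0.50 ± 0.08 (SE, n = 4 and 4; limma adjusted p = 9.24e-05) and -0.81 ± 0.09 (SE, n = 3 and 4; limma adjusted p = 1.11e-06), the latter -0.85 within slide 2 and -0.70 within slide 3. Cyp39a1, another oxysterol hydroxylase, fell by 0.66 after aspiration and had a change of -0.09 after inhalation (limma adjusted p = 0.385). Cyp46a1, the cholesterol hydroxylase of brain, passed in neither comparison (-0.09 and 0.18).

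Of the genes for steroid hormones, Cyp17a1 and Cyp21a1 were measured, and Cyp11a1, Cyp11b1, Cyp11b2 and Cyp19a1 were not. Cyp17a1, the steroid hydroxylase and lyase of adrenal and gonad, had 12.14, 12.42, 12.59 and 12.49 in untreated lungs and 13.58, 13.04 and 13.32 after inhalation. The inhaled samples were all higher, by 0.95 ± 0.21 (SE, n = 3 and 4; limma adjusted p = 0.000999), with 1.20 within slide 2 and 0.69 within slide 3. It was 0.52 with channels brought only to a common median (limma adjusted p = 0.0128). The aspiration samples were lower than either, with 11.00, 11.95, 10.71 and 11.21 for PBS and 11.08, 11.06, 11.59 and 11.14 for rCNT, which overlapped and differed by 0.00 ± 0.19 (SE, n = 4 and 4; limma adjusted p = 0.996). Against the PBS samples inhaled rCNT was higher by 2.14 (limma adjusted p = 6.97e-07). Of 6 markers of adrenal or gonad, Hsd3b1, Hsd3b2, Mc2r and Lhcgr were not measured, and Star and Nr5a1 changed by 0.02 and -0.39 after inhalation, neither passing. For Nr5a1 untreated replicate 1, the sample with the conflicting title, had 9.92, against 8.17 to 8.24 in the other untreated and 8.20 to 8.36 in the inhaled samples. Cyp21a1, the adrenal steroid hydroxylase, rose by 0.25 after aspiration (limma adjusted p = 0.00574).

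Cyp26b1, which breaks down retinoic acid, was lower by both routes but varied widely among samples. It had 13.52, 12.43, 12.22 and 12.82 with PBS and 11.22, 12.68, 10.44 and 9.61 with aspirated rCNT, which overlapped at rCNT replicate 2, and the change was -1.76 ± 0.51 (SE, n = 4 and 4; limma adjusted p = 0.00951). Untreated lungs had 10.99, 12.27, 11.76 and 11.96 and inhaled ones 9.62, 9.99 and 10.99. The highest inhaled and the lowest untreated sample nearly met, and the change of -1.56 ± 0.55 (SE, n = 3 and 4; limma adjusted p = 0.0227) was -2.05 within slide 2 and -1.47 within slide 3. It lost the call without inhaled rCNT replicate 1 (-1.26, limma adjusted p = 0.0995) or 2 (-1.45, limma adjusted p = 0.0772), and without untreated replicate 2 (-1.37, limma adjusted p = 0.0584) or 4 (-1.48, limma adjusted p = 0.0524), and with a trended, robust variance (-1.56, limma adjusted p = 0.0697). Against the PBS samples it was -2.56 (limma adjusted p = 0.00106). Cyp2r1, a vitamin D hydroxylase, rose by 0.68 after inhalation (limma adjusted p = 0.000287), but another of its probes gave -0.38 (limma adjusted p = 0.00288), so its direction is unsettled.

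The difference between the routes was tested as the aspiration change minus the inhalation change. It was above 0 for 11 members and below 0 for 14 at a limma adjusted p under 0.05, as for 28.4% and 28.5% of all genes, and with channels brought only to a common median for 10 and 8. Cyp2a4 differed by -3.09 ± 0.26 (SE; limma adjusted p = 1.17e-07), Cyp4f15 by -1.31 ± 0.14 (SE; limma adjusted p = 1.18e-06) and Cyp2s1 by -1.25 ± 0.16 (SE; limma adjusted p = 9.99e-06), all lower by aspiration. With channels brought only to a common median Cyp2s1 differed by -0.65. Cyp4f18 differed by 2.12 ± 0.19 (SE; limma adjusted p = 1.66e-07), Cyp7b1 by 1.47 ± 0.16 (SE; limma adjusted p = 1.22e-06) and Cyp1b1 by 1.32 ± 0.18 (SE; limma adjusted p = 1.39e-05). Cyp2j6 (0.83), Cyp2j8 (0.70), Cyp2j13 (0.69) and Cyp2j9 (0.45) had the larger fall after inhalation, though for Cyp2j13 this rests on the brightest probe, and its other probe gave -0.10 after aspiration and 0.06 after inhalation. For Cyp1a1 the routes differed by 0.05 ± 0.39 (SE; limma adjusted p = 0.919) and for Cyp2d22 by 0.06 ± 0.12 (SE; limma adjusted p = 0.7), which does not show that they act alike.

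**Figure D3:**
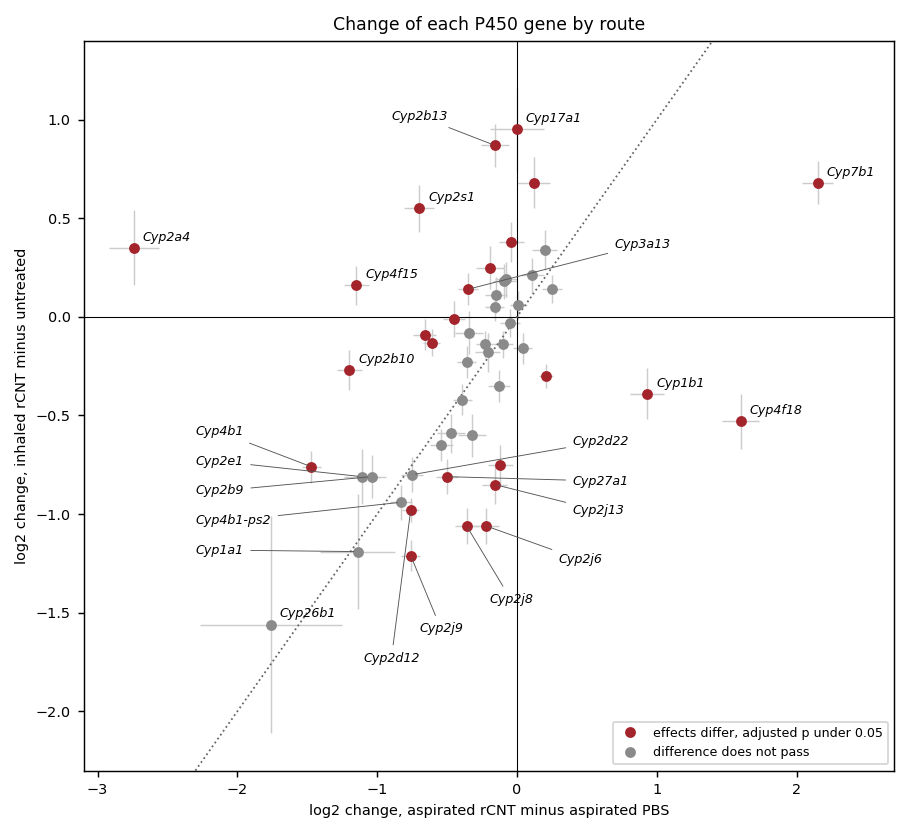
Log2 change after aspiration (horizontal axis) against that after inhalation (vertical axis) for the 51 P450 genes, with standard errors as grey bars, a dotted line of equal change and red points where the 2 changes differ at a limma adjusted p under 0.05. Cyp2a4, Cyp4f15 and Cyp2s1 lie far left of the line, Cyp7b1, Cyp4f18 and Cyp1b1 far right of it, and the CYP2J genes below it.

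The 2 control groups also had different levels of some members. The mean was lower with PBS than in untreated lungs for 33 of 51 members and higher for 18, and for 3 the means were over 1 log2 unit apart. These were Cyp1a1 (8.93 against 10.94), Cyp17a1 (11.22 against 12.41) and Cyp2a4 (12.10 against 10.71). The groups were on different slides, so slide and aspirated PBS cannot be told apart.

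**Figure D4:**
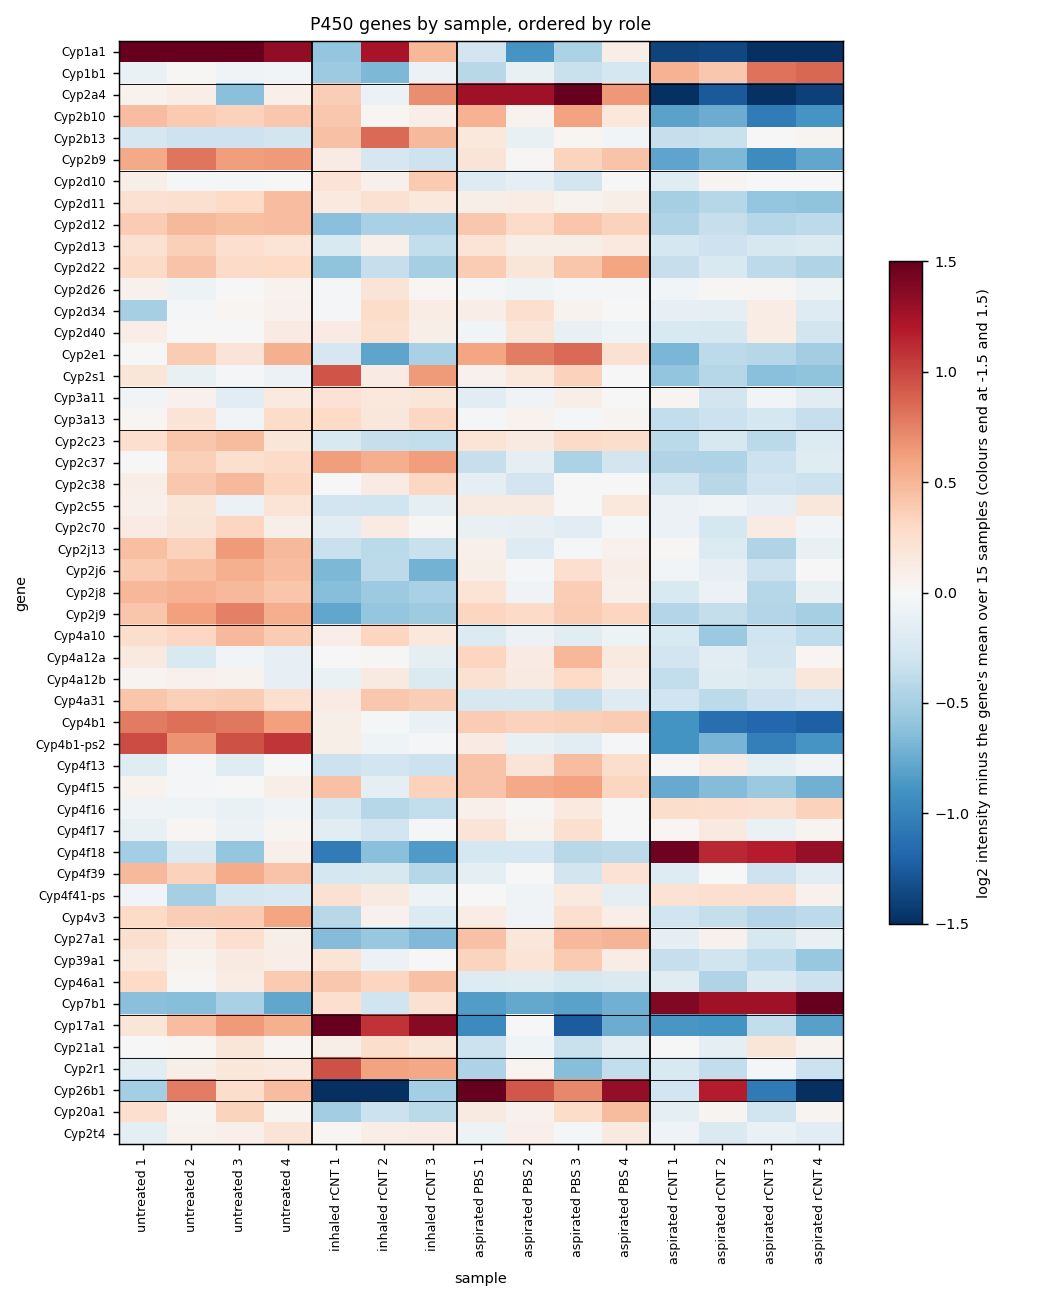
Log2 intensity of each of the 51 P450 genes (rows, ordered by role) in each of the 15 samples (columns), less the gene's mean over the samples, with red above and blue below that mean. The untreated samples of Cyp1a1 (mean 10.94) and the aspirated rCNT samples of Cyp7b1 (mean 11.20) are the reddest of their rows, and the aspirated rCNT samples of Cyp2a4 (mean 9.36) the bluest of theirs.

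Companion genes of the same metabolism were counted in lists. Over all genes 26.5% fell and 20.6% rose after aspiration, and 32.5% fell and 28.4% rose after inhalation. Of the 8 genes for electron transfer partners and haem supply 5 fell and none rose after aspiration, and 3 rose and 2 fell after inhalation. Por, the reductase that most P450 enzymes depend on, changed by -0.83 (limma adjusted p = 1.92e-06) and 0.18 (limma adjusted p = 0.123). Of 11 measured receptors and regulators 5 fell and 1 rose after aspiration, and 3 fell and 4 rose after inhalation. Of 21 measured conjugation enzymes, which couple oxidised compounds to glutathione, sulfate or glucuronic acid, 12 fell and 2 rose by each route, with Gstm3 lower by 1.04 and 1.27. Of 21 other oxidases, hydrolases and dehydrogenases 16 fell and none rose after aspiration, and 12 fell and 2 rose after inhalation.

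The P450 genes left out of the members had the following values. Cyp2f2, the main P450 of mouse club cells, changed by -2.10 (limma adjusted p = 5.79e-08) and -0.74 (limma adjusted p = 0.0023), and Cyp51 of cholesterol synthesis by 0.54 (limma adjusted p = 0.00306) and -0.08 (limma adjusted p = 0.628). Tbxas1, the thromboxane synthase, rose by 1.43 after aspiration (limma adjusted p = 2.22e-10) and had -0.11 after inhalation (limma adjusted p = 0.245), and Ptgis, the prostacyclin synthase, changed by -0.65 (limma adjusted p = 5.24e-05) and -0.33 (limma adjusted p = 0.0149).

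Markers of the cell types that hold these enzymes moved as well. Their counts stand beside 26.5% of all genes lower and 20.6% higher after aspiration, and 32.5% and 28.4% after inhalation. Of 8 measured club cell markers 6 fell and 1 rose after aspiration, with mean log2 levels over the list of 14.39 to 14.69 with PBS and 13.86 to 14.05 with rCNT, and 5 rose and none fell after inhalation, with 14.06 to 14.20 in untreated lungs and 14.65 to 14.80. The defining marker Scgb1a1 changed by -0.98 and 0.03. All 10 endothelial markers fell after aspiration and 9 after inhalation, with levels of 13.12 to 13.39 against 12.39 to 12.60 and 13.35 to 13.45 against 12.50 to 12.85. Of 8 alveolar type 2 markers 3 fell and 1 rose by each route, and of 9 fibroblast markers 5 fell and 3 rose after aspiration and all 9 fell after inhalation. Of 7 measured fat cell markers 4 and 5 fell, with 0 and 1 higher, and of 8 smooth and cardiac muscle markers 6 fell and 1 rose after aspiration and 3 fell and 1 rose after inhalation. Liver was checked because many P450 genes are strongest there. Apoa1, Ttr, Fgb and Serpina1c were not measured, and of the 4 other liver markers 1 rose after aspiration and 1 fell after inhalation. Among these Alb, the albumin gene, had 10.35 in untreated replicate 1 and at most 6.74 in the other untreated samples, and was not well above background in any rCNT sample. The part of these cell types in the changes of the P450 genes was not tested.

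Of the 96 P450 genes 45 were not measured, and for 38 of them no sample was well above background. Among these 45 were Cyp1a2, Cyp7a1, Cyp8b1, Cyp24a1, Cyp27b1 and Cyp26a1. Of the 51 measured, 43 were well above background in all 15 samples. Over all genes, 5212 were higher and 6695 lower after aspiration, and 7167 higher and 8197 lower after inhalation. With channels brought only to a common median the inhalation split was 3837 and 10134 and the median log2 change of all genes -0.15. Inhalation changes therefore depend on the scaling, and for some members the shift was larger than that median. Cyp17a1 went from 0.95 to 0.52, and Cyp2b10, Cyp2s1, Cyp4b1 and Cyp4f18 shifted as given above. With the processed signal of the scanner software, which adds no offset to dim probes, the inhalation change was larger for Cyp2b13 (1.59), Cyp2j13 (-1.59), Cyp27a1 (-1.45) and Cyp2d22 (-1.25), and the aspiration change for Cyp2d22 (-1.19), Cyp2d12 (-1.15), Cyp27a1 (-0.77) and Cyp2j6 (-0.34).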

How the data were processed

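Lung RNA of 15 samples was measured on 14 2-colour Agilent arrays on 3 slides. Per the file headers, the scans were read by Agilent Feature Extraction (11.0.1.1), while limma is named in the submitters' processing notes. Of the deposited intensity columns, the median signal of each spot and the local background median were taken, in the channel of the sample's own dye. The authors' series table, taken as log2 because its columns correlated at 0.9991 to 1 with the own channel with a slope of 0.917 to 1.024, served as an alternative. How its values were background-corrected and centred is not given in the sources used here.

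Background correction was by normexp (offset 50) over all 62976 spots, followed by log2. Control spots and 106 to 154 outlier spots per sample were then left out, and the 15 channels were quantile normalised. Between 53.2% and 63.7% of probes were well above background, the median brightness was 56.5 to 149.5 units, and no spot was saturated. The number of arrays limits the precision. Of 55681 probes 34271 were kept, those well above background in 3 or more samples of some group. Through RefSeq accessions in a table of GRCm38.p6, 27656 probes of the whole array were given 1 of 20972 gene symbols, of which 15838 were among those tested. The brightest kept probe stood for a gene.

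A limma (3.58.1, R 4.3.3) fit had terms for the 4 groups and for dye, with empirical Bayes and Benjamini-Hochberg adjustment over all 25251 genes or transcripts and a threshold of 0.05. The script was tested on simulated data. The text names 23 members by a rule, namely the 14 with the largest passing change in each comparison, the 6 with the largest passing difference between routes, and a list of names. The members, lists and rule were chosen with earlier results of these data known. The high dose of 40 µg a day named in the design was not analysed here.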

Additional observations from a re-analysis of the deposited data

Results flagged for a closer look

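A sample stood far from the others of its group in 3 of 69 groups of 4 tested among the named members (by Dixon's test of the gap to the next sample at the 95% level), and chance marks about 1 group in 20. These were aspirated rCNT replicate 3 for Cyp17a1 (11.59, the others 11.06 to 11.14), untreated replicate 3 for Cyp2a4 (10.18, the others 10.86 to 10.91) and untreated replicate 2 for Cyp2d22 (8.19, the others 8.05 to 8.06).

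The aspiration change minus the inhalation change passed the limma test for 17 named members. It was above 0 for Cyp4f18 (2.12), Cyp7b1 (1.47), Cyp1b1 (1.32), Cyp2j6 (0.83), Cyp2j8 (0.70), Cyp2j13 (0.69), Cyp2j9 (0.45), Cyp27a1 (0.30) and Cyp2d12 (0.22). It was below 0 for Cyp2a4 (-3.09), Cyp4f15 (-1.31), Cyp2s1 (-1.25), Cyp2b13 (-1.04), Cyp2b10 (-0.94), Cyp17a1 (-0.94), Cyp4b1 (-0.71) and Cyp3a13 (-0.48). Route, slide and kind of control cannot be told apart in these values.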

How the results depend on the processing

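Over all alternatives, 1445 values of the named members kept their direction and their side of the threshold or moved by less than 1 SD, 29 lost the call, 8 gained it, 26 values within a slide moved by more than 1 SD and 11 turned direction. The count of members higher after inhalation was 8, and became 13 with array weights and 15 against the PBS samples. The count more negative by aspiration was 14, and became 8 with channels brought only to a common median. Against the PBS samples the inhalation change turned for Cyp1a1 (0.81), Cyp2a4 (-1.05), Cyp4b1-ps2 (0.03) and Cyp4f15 (-0.29). It also turned for Cyp3a13 with the mean of its probes (-0.20) and within slide 3 (-0.04), and was 0.00 for Cyp2b10 within slide 2. The aspiration change of Cyp17a1 ran from -0.14 to 0.23 as single samples were left out. The cause of these shifts was not tested. With 1 sample left out in turn, the members lower after aspiration numbered 25 to 29 and those lower after inhalation 21 to 26.

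Replicate numbers of the labels did not pair the samples (correlations of deviations from -0.135 to 0.286 for aspiration and -0.091 to 0.125 for inhalation). With the number as a replicate block 5 members were higher and 27 lower after aspiration, 7 higher and 24 lower after inhalation, and of the named members Cyp2j6 after aspiration lost its call (-0.22, limma adjusted p = 0.0733). Array weights ended the inhalation calls of Cyp1b1 (-0.15) and Cyp26b1 (-1.19). Signal over background limits the 8 members not well above background in all 15 samples.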
